A study of Mus musculus with 2 samples.

Results

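Transcripts of the VHL and hypoxia-inducible factor control system were examined in mouse ventral prostate with and without U19/Eaf2, a protein that binds the VHL protein. The set held 9 genes, Vhl, Hif1a, Epas1, Arnt, Egln1, Egln2, Egln3, Hif1an and Cul2. They were chosen by name and function, with earlier results of these data known. They were represented by 23 probe sets, each annotated with exactly 1 gene symbol, among 34945 such probe sets for 18193 genes on the array. The wild-type group was U19/Eaf2 +/+ and the other group was labelled U19/Eaf2 -/-. Both came from 3-month-old male C57BL/6J mice, and each group was 1 sample on 1 array, 2 arrays in all. Neither the design of the deleted allele nor the number of animals behind each sample was stated in the labels. No test could be made between single arrays, and each difference below describes this pair.

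In cells with oxygen, prolyl hydroxylases mark the alpha subunits of hypoxia-inducible factors (HIFs), and the VHL protein, as the substrate receptor of a CUL2 ubiquitin ligase, binds the marked subunit and sends it to the proteasome. Low oxygen or loss of VHL spares the alpha subunit, which pairs with ARNT and switches on genes for glucose uptake, glycolysis, vessel growth and its own hydroxylases. The main control therefore acts on HIF protein, which these arrays did not measure. Some members are also HIF targets, Egln3 and Egln1 above all.

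HIF dimers bind short DNA elements with the core letters ACGTG or GCGTG, so the promoters of the members were read for these letters. The 250 bases before the start are printed for Hif1a, which had higher signals in its 2 brightest probe sets. They are also printed for Vhl, whose 2 brightest probe sets differed most of any member's pair, and for Egln2 and Egln3. These 2 hydroxylases lay on either side of 0. The choice of these promoters was made after the values were seen. Capitals mark ACGTG on either strand, and all are from RefSeq on GRCm38.p6, 5′ to 3′ along the gene.
Vhl, chr6:113623744-113623993, plus strand: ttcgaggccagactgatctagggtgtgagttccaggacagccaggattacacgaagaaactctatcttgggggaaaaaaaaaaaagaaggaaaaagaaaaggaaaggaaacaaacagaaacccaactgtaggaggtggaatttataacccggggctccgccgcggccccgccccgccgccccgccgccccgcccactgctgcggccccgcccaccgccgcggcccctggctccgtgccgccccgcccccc
Hif1a, chr12:73907617-73907866, plus strand: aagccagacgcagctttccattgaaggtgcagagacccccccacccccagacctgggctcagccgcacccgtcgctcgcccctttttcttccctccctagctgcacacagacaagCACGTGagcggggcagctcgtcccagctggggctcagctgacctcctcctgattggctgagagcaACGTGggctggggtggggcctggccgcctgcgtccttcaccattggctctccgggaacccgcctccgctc
Egln2, chr7:27166803-27167052, minus strand: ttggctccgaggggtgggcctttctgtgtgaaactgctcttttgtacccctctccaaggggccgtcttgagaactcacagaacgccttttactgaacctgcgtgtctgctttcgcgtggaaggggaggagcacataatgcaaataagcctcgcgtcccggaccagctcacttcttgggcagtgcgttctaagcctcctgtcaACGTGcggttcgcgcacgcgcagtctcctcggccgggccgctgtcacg
Egln3, chr12:54203875-54204124, minus strand: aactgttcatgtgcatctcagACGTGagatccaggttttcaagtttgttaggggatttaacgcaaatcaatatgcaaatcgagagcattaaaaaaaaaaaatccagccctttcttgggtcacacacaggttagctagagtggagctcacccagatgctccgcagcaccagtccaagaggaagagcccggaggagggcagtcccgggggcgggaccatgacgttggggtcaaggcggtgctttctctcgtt

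The Hif1a window held 3 matches to ACGTG over both strands, of which 2 are the same palindrome CACGTG read on each strand, and no GCGTG. The Egln2 window held 1 ACGTG and 3 GCGTG, the Egln3 window 1 ACGTG, and the Vhl window neither. Promoters of 7 members were matched, 8 windows in all since Egln2 has 2. Of these, 4 held ACGTG (50%), against 16.6% of all 32851 promoters of that length and 42.1% of 57 promoters of known HIF target genes. Either core, ACGTG or GCGTG, was held by 75% of the member windows, 75.4% of the target promoters and 38.6% of all promoters. The core holds a CpG, and the median number of CpG pairs was 13 in the member windows, 18 in the target windows and 6 over all promoters. A match describes letters only and is not a bound site.

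The deposited values are linear probe-set signals in array units. A floor of 166, the 50th percentile of all non-control signals, stood in for detection calls: a probe set entered if 1 array reached it, and a lower value was raised to it, so that such a ratio is a bound. Eaf2 itself read 691 in wild type and 702 in the labelled knockout in its only single-symbol probe set, a log2 ratio of 0.02. The labels do not say whether that probe set lies inside the deleted part, so its level checks nothing, and all directions here depend on the labels. The 3′ over 5′ ratio of the Actb control probe sets, a guide to RNA degradation, was 1.25 in wild type and 1.65 in the labelled knockout. That of the Gapdh control probe sets was 0.71 in wild type and 0.85 in the labelled knockout. The part of RNA degradation in the member readings was not tested. Of 5 entering genes of ventral prostate secretion, Pbsn, Msmb, Mme and Spink1 read between 21061 and 64718 over both arrays, and Tgm4 read 274 and 121. In all, 4 of these 5 were lower in the labelled knockout, with a median log2 ratio of -0.38, while all 5 seminal vesicle markers on the array lay below the floor.

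Of the 23 member probe sets, 18 entered, and 0 of those 18 differed by 2-fold once values were raised to the floor, where 1.72% of all 20538 entering probe sets did. At least 1.5-fold apart were 4 member probe sets, 2 higher and 2 lower, from 3 genes, while 12.5% of all entering probe sets were. Of these 4, Arnt 1449696_at has only a bound, and it passed 2-fold at a 30th percentile floor, with no floor and with a pseudocount of 50. Higher signals on the array labelled knockout were read by 9 of the 18 and lower signals by the other 9, beside 45.2% higher over all probe sets. That split was 11 and 7 under loess and 10 and 7 under quantile normalization, where 50% and 50.2% of all probe sets were higher. It was 9 and 3 at a 70th percentile floor (50.7% of all higher), 10 and 12 at a 30th (43.1%) and 10 and 13 with no floor (42.7%). The member ratios ran from -0.85 to 0.67 with a median of 0.014 on the log2 scale, and the median over all entering probe sets was -0.04. The 5th and 95th percentiles of all entering probe sets were -0.68 and 0.58.

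**Figure D1:**
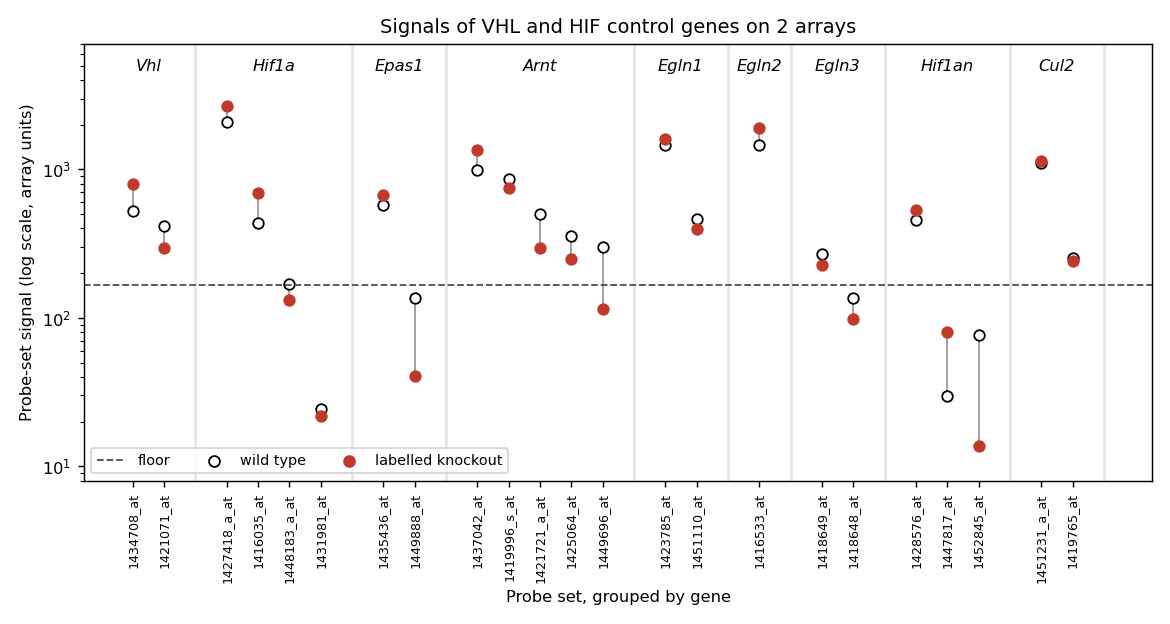
Signal of each of the 23 member probe sets (log axis, array units) on the wild-type array (open circles) and the array labelled knockout (red), grouped by gene, with the floor of 166 as a dashed line. The 2 Vhl probe sets read in opposite directions, 4 of 5 Arnt probe sets read lower on the array labelled knockout, and 5 probe sets lay below the floor on both arrays.

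Vhl, the substrate receptor that recognises hydroxylated HIF and the member that U19/Eaf2 binds as protein, gave opposite readings in its 2 probe sets. Probe set 1434708_at read 525 in wild type and 793 in the labelled knockout, 1.51-fold higher, a log2 ratio of 0.60. Probe set 1421071_at read 417 and 294, 1.42-fold lower, a log2 ratio of -0.51. No direction can be given for Vhl as a gene: the median of the pair was 0.04. Each sign held in every scaling, floor and pseudocount setting under which the probe set entered, from 0.55 to 0.64 for the former and from -0.51 to -0.40 for the latter. Both probe sets are of the kind whose name ends in _at alone, the design type meant for 1 transcript. The 2 were annotated from different source sequences, and which Vhl exons or ends they read was not analysed here.

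The disagreement was wide beside other genes. The 2 brightest probe sets were compared across 4497 genes with at least 2 at the floor or above on both arrays. Their log2 ratios differed by a root mean square of 0.482, or 0.341 per probe set, and the median difference was 0.30. The Vhl pair, the widest of the 5 member pairs, lay 1.10 apart, and 2.69% of those genes had a pair at least as far apart. A gap of at least 2-fold between such a pair was seen in 1 of the 5 members that have one, and in 4.16% of all these genes. This spread holds whatever sets probe sets of a gene apart on this pair of arrays, not probe-level error alone. A shift shared by all probe sets of a gene cancels out of it, and it does not measure variation between animals, dissections or hybridisations. The ratios themselves had an SD of 0.39 over all entering probe sets.

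**Figure D2:**
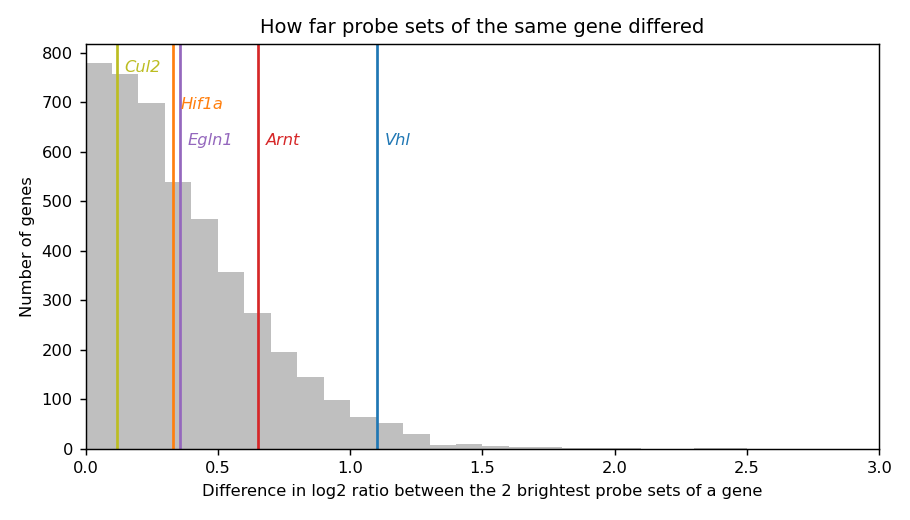
Distribution over 4497 genes of the difference in log2 ratio (labelled knockout over wild type) between the 2 brightest probe sets of a gene, with the 5 members that have such a pair as vertical lines. Vhl, at 1.10, lies far out in the tail, Arnt at 0.65, and Egln1, Hif1a and Cul2 at 0.36 or less.

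Cul2 is the cullin scaffold on which the VHL ligase is built, joining VHL and the elongins to the RING protein that brings the charged ubiquitin enzyme. Probe set 1451231_a_at read 1104 in wild type and 1145 in the labelled knockout. Probe set 1419765_at read 254 and 243. The log2 ratios of 0.05 and -0.07 were both smaller than the spread of 0.341 per probe set, and the second became 0.09 under both quantile normalization and loess. Of the members with 2 probe sets at the floor on both arrays, Cul2 had the pair closest together, 0.12 apart.

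Hif1a encodes the alpha subunit that VHL hands over for destruction, and its 2 brightest probe sets both read higher on the array labelled knockout. Probe set 1427418_a_at read 2094 and 2660, 1.27-fold higher, a log2 ratio of 0.34. Probe set 1416035_at read 437 and 696, 1.60-fold higher, a log2 ratio of 0.67, the highest of any member. At the deposited scaling, Hif1a was the only one of the 5 members with such a pair in which the brightest 2 agreed in sign. Under quantile normalization and loess both Cul2 probe sets also lay above 0. The 2 Hif1a ratios ran from 0.28 to 0.39 and from 0.62 to 0.73 over the scalings, floors and pseudocount. The smaller ratio was about as large as the spread of 0.341 per probe set, and the larger exceeded it. A dim probe set, 1448183_a_at, read 169 and 131 around the floor, and its bound of -0.02 became -0.37 with no floor or a 30th percentile floor, -0.27 with a pseudocount and 0.05 under loess. The last, 1431981_at, read 24.4 and 21.7, below the floor on both arrays.

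Epas1 encodes HIF-2 alpha, the second VHL-regulated alpha subunit, known for its abundance in endothelium. Probe set 1435436_at read 578 in wild type and 668 in the labelled knockout, a log2 ratio of 0.21, within the spread of 0.341 per probe set. Probe set 1449888_at read 136 and 40.7, below the floor on both, so no fold is given, and the direction opposes that of the brighter probe set. Beside it, 6 of 9 entering endothelial markers were lower, with a median log2 ratio of -0.12, where 47.0% of all entering genes were higher. The summed signal of the 9 was 2853 in wild type and 2502 in the labelled knockout. Of the 6, Kdr read 480 on both arrays, and Flt1 and Tek fell below the floor in the labelled knockout, so they are bounds. Cdh5, Eng and Cldn5 were higher. Of 12 listed endothelial markers, Pecam1, Tie1 and Vwf lay below the floor on both arrays. In whole tissue, fewer cells of a type and less RNA per cell cannot be told apart, and the part of the endothelial share in the Epas1 reading was not tested.

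Arnt encodes the beta subunit with which both alpha subunits pair, and it was the member with the most probe sets and the widest range. Its brightest, 1437042_at, read 988 in wild type and 1359 in the labelled knockout, 1.38-fold higher. The other 4 all read lower. Probe set 1421721_a_at read 504 and 298, 1.70-fold lower, a log2 ratio of -0.76. Probe set 1425064_at read 357 and 249, with a log2 ratio of -0.52, and 1419996_s_at read 856 and 749, with -0.19. The lowest was 1449696_at, at 300 and 116: the second value is below the floor, so that it was at least 1.81-fold lower. The last 2 were annotated from the same source sequence, so they are not independent readings of Arnt.

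The Arnt signs held across the scalings, floors and pseudocount under which each probe set entered, from 0.43 to 0.51 for the brightest and from -0.76 to -0.27 for 1421721_a_at. Taking the brightest probe set as the gene gives a log2 ratio of 0.46, and taking the median of the 5 gives -0.52. The 4 probe sets at the floor or above on both arrays spanned 1.22, where 10.8% of 453 genes with that number spanned at least as much and the median span was 0.66. Smooth muscle and fibroblast markers were lower on the same array, 9 of 10 and 9 of 9 entering genes, with medians of -0.54 and -0.34. Their summed signals were 53736 and 39712 for smooth muscle and 24418 and 20501 for fibroblasts, and their part in the Arnt readings was not tested.

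**Figure D3:**
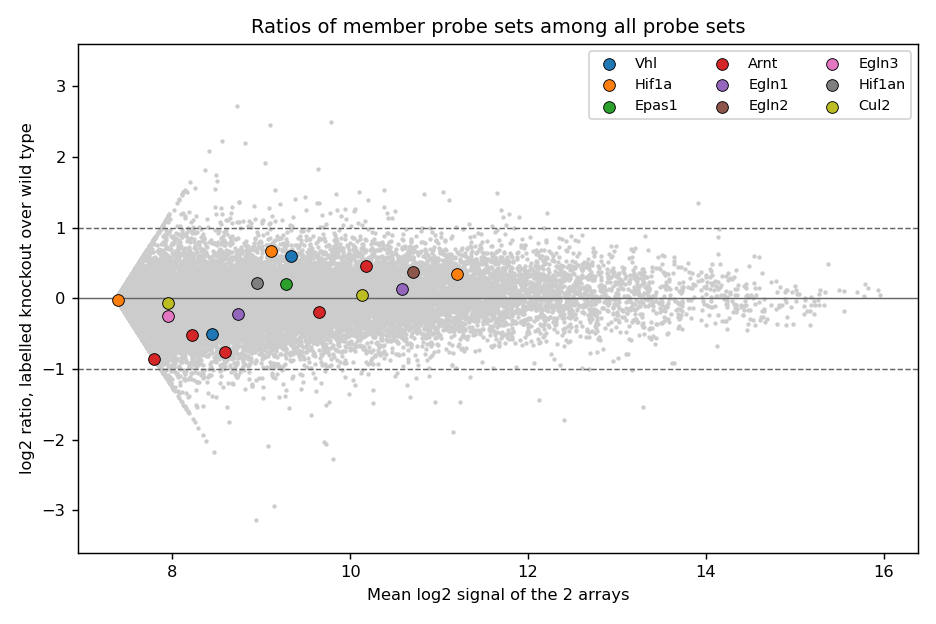
Log2 ratio (labelled knockout over wild type, lower values raised to the floor) against the mean log2 signal of both arrays for all 20538 entering probe sets (grey) and the 18 of the members (coloured by gene), with 2-fold marked by dashed lines. The member probe sets all lie between the dashed lines, the 4 lower Arnt points lie left of the higher one, and the brightest points of Hif1a, Egln2, Arnt, Egln1 and Cul2 lie above 0.

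The 3 prolyl hydroxylases, which sense oxygen and mark the HIF alpha subunits for VHL, did not share a direction. Egln2, the member of the family known to be driven by oestrogen in breast cells, read 1470 in wild type and 1899 in the labelled knockout, 1.29-fold higher, in its only probe set. Its log2 ratio of 0.37 was slightly above the spread of 0.341 per probe set and within the SD of 0.39 over all entering probe sets. That ratio ran from 0.31 to 0.42 over the scalings, floors and pseudocount. Egln1, the main hydroxylase of HIF1A in most tissues, read 1461 and 1601 in 1423785_at and 461 and 394 in 1451110_at. Those log2 ratios, 0.13 and -0.23, lay on either side of 0 although both probe sets came from the same source sequence, and the latter shrank to -0.14 at its smallest.

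Egln3, the hydroxylase most strongly induced by HIF itself, read 270 in wild type and 227 in the labelled knockout in 1418649_at, a log2 ratio of -0.25 that shrank to -0.09 under loess. Its other probe set, 1418648_at, read 137 and 98.1, below the floor on both arrays. Both lay lower on the array labelled knockout, each by less than the spread between probe sets where a ratio could be given, and both came from the same source sequence. Hif1an, the asparagine hydroxylase that blocks recruitment of coactivators by HIF, read 458 and 535 in 1428576_at, a log2 ratio of 0.22. Its other probe sets read 29.9 and 80.7 in 1447817_at and 76.5 and 13.6 in 1452845_at. These were below the floor on both arrays and pointed opposite ways, so no fold is given. Of them, 1452845_at came from the same source sequence as 1428576_at but read in the opposite direction.

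Taking for each gene its brightest probe set, 8 of the 9 members read higher on the array labelled knockout, all but Egln3, with a median log2 ratio of 0.22. Over all 11671 entering genes chosen in the same way, 47.0% were higher and the median was -0.03. That count depended on the choice of probe set. With the median over a gene's probe sets, 5 of 9 were higher and the median was 0.045. Luminal epithelial markers were higher for 5 of 8 entering genes, with a median of 0.24 and a summed signal of 96107 in wild type and 111100 in the labelled knockout. Adipocyte markers were higher for 3 of 4, with a median of 0.58 and summed signals of 1528 and 2419. Among them Adipoq, which defines fat cells, read 13.8, below the floor, and 255, so its ratio is a bound. Retn, the 1 that was lower, read 387 and 341. Of 6 adipocyte markers on the array, 4 entered. The part of these cell types in the member readings was not tested. Ratios also went with brightness over the whole array: the median log2 ratio was -0.12 in the 5135 dimmest entering probe sets and 0.06 in the 5135 brightest. Among the 5 members with at least 2 probe sets at the floor on both arrays, 4 had ratios of both signs, as did 56.6% of all such genes.

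The genes that work with VHL were described from lists of partners, 9 lists in all, also chosen with earlier results of these data known. Of 147 listed genes, 137 were on the array with 1 symbol and 121 entered, of which 2 differed by 2-fold, beside 1.47% of all entering genes. The share of all entering genes at least 1.5-fold apart was 11.0%. Subunits and enzymes of the ligase, the elongins, ubiquitin-conjugating enzymes and the neddylation machinery that switches cullins on, had 8 of 15 higher and 0 past 1.5-fold. Their median was 0.01, close to the -0.03 of all genes, and it became -0.04 under quantile normalization and loess, -0.03 when the probe set nearest 0 stood for each gene, and -0.12 with the median over probe sets or without suffixed ones. The lowest were Ube2d3, a ubiquitin-conjugating enzyme, at -0.51, with 2 of its other 6 probe sets opposite, and Elob, elongin B, a subunit of the VHL ligase, at -0.50. Elob read 5350 and 3794 in that probe set, but 4034 and 3950 in its other. The highest were Dcun1d1, a neddylation ligase, at 0.35 with 3 of 4 other probe sets opposite, and Uba3, the catalytic subunit of the NEDD8-activating enzyme, at 0.35 with no other probe set opposite.

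The other core subunits of the VHL ligase were looked up after their values were seen. Eloc, elongin C, had 4 probe sets that all read higher on the array labelled knockout, from 0.10 to 0.24, each smaller than the spread per probe set. Its brightest read 2833 and 3128. Rbx1, the RING subunit, had a single probe set at 107 and 141, below the floor on both arrays.

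Other cullins had 4 of 7 higher and a median of 0.13. Cul4b was highest at 0.32, with its other entering probe set also higher, followed by Cul1, the SCF scaffold, at 0.20. Cul7 was lowest, at 812 and 479, a log2 ratio of -0.76 in its only probe set, followed by Cul9 at -0.31. The other substrate receptors of CUL2, which use the same scaffold as VHL, had 7 of 8 higher and a median of 0.34, which stayed above 0 in all 10 alternatives but was as low as 0.06 when the probe set nearest 0 stood for each gene. Appbp2 led, at 899 and 2073, 2.30-fold higher, while its other 4 entering probe sets ran from -0.55 to 0.20. Klhdc2, a receptor for C-terminal degrons, had 0.46 with 2 of 2 other probe sets in the same direction. The lowest were Klhdc3 at -0.31 with 2 of 3 other probe sets opposite, and Fem1c at 0.03, with its other entering probe set also higher.

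Proteins that bind VHL or affect HIF stability had 6 of 16 higher and a median of -0.01, which became positive under median centring. The VHL-binding prefoldin subunit Vbp1 read 2795 and 3652, a log2 ratio of 0.39 in its only entering probe set, and the mitochondrial channel Vdac1 had 0.38 with 1 of 3 other probe sets opposite. Fh1, the fumarate hydratase whose loss inhibits the hydroxylases through fumarate, read 2995 and 1910, 1.57-fold lower in its only entering probe set. The deubiquitinase Usp8 had -0.36 with its other entering probe set in the same direction.

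Relatives of the HIF subunits in the bHLH-PAS family share the dimerisation fold of ARNT. Of the 7 that entered, 1 was higher, and the median was -0.21. That median stayed below 0 in all 10 alternatives, and was -0.12 under quantile normalization and -0.11 under loess. At the 70th percentile floor only 3 of these genes entered. Hif3a, the third alpha subunit, read 283 and 190, a log2 ratio of -0.57, while its other 5 probe sets lay below the floor on both arrays. The dioxin receptor Ahr had -0.30 with its other probe set in the same direction. The highest were Npas2, a bound of 0.15, and the circadian partner Arntl at -0.16, with its other entering probe set also lower.

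Genes that HIF switches on were read to set beside the members. Those of glucose uptake and glycolysis had 10 of 15 higher and a median of 0.04, with 0 past 1.5-fold. That median turned negative without probe sets of the suffixed kinds and was 0.14 at the 70th percentile floor, where 12 genes entered. Hexokinase Hk2 read 2431 and 3452, a log2 ratio of 0.51 in its only entering probe set, and the glucose transporter Slc2a1 had 0.38 with 1 of 2 other probe sets opposite. The lowest were Pfkp, a phosphofructokinase, and the transporter Slc2a3, both under the floor in the labelled knockout and at least 1.49-fold and 1.34-fold lower.

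The other HIF targets had 16 of 30 higher and a median of 0.04, with 2 past 1.5-fold in each direction. That median turned negative with 2 of the other choices of probe set and was 0.14 at the 70th percentile floor, where 17 genes entered. Ddit4, an mTORC1 inhibitor induced by hypoxia, read 1623 and 905, 1.79-fold lower in its only entering probe set, and the lipase inhibitor Angptl4 was at least 1.69-fold lower. The highest, Vldlr, a lipoprotein receptor, read 279 and 503 in its brightest probe set, but its other 2 entering probe sets read lower, at -0.76 and -0.12. The transferrin receptor Tfrc had 0.75, with its other entering probe set at -0.15. Vegfa, the vessel growth factor and best-known HIF target, was looked up after its values were seen and read 396 and 402 in 1 probe set and 349 and 220 in the other.

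**Figure D4:**
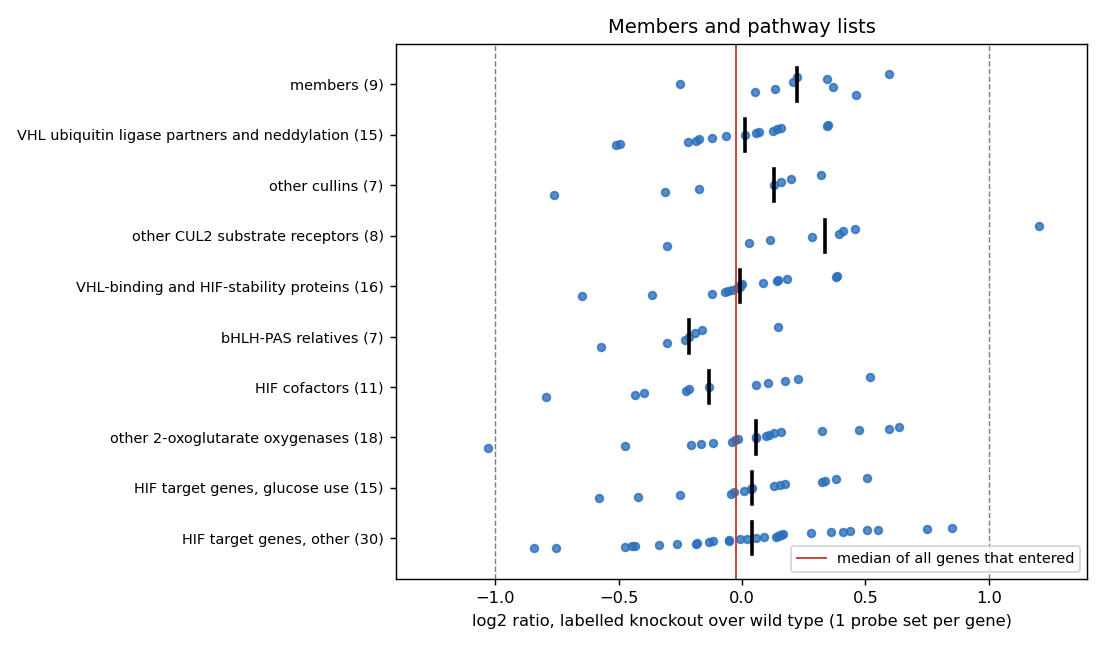
Log2 ratio (labelled knockout over wild type, the brightest probe set of each gene) for the 9 members and the genes of 9 lists that entered, with the number of genes in brackets, medians as black bars, the median of all 11671 genes as a red line and 2-fold as dashed lines. List medians lie between -0.21 and 0.34, and Appbp2 and Plod1 are the 2 points beyond 2-fold.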

How the data were processed

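Ventral prostate RNA was hybridised to an Affymetrix mouse array, 1 array per group. The deposited values are linear probe-set intensities. The submitters' processing notes name GCOS 1.4 but no settings. After trimming 2% of probe sets at each end, each array averaged 500.0, the mark of a global scaling. Of 45037 non-control probe sets, 34945 had 1 gene symbol, 932 several and 9160 none, by the platform annotation. All 23 member probe sets had the same symbol in RefSeq's GRCm38.p6 gene table through their Entrez IDs.

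Log2 ratios were taken of the array labelled knockout over the wild-type array after values were raised to the floor, with no pseudocount and no further normalization. A gene stood by its brightest probe set (mean log2 signal over both arrays), and all probe sets of the members are shown. For other named genes the direction of their further entering probe sets is given. Suffixed probe sets are those ending in _s_at, _x_at or _a_at. From each list the 2 highest, the 2 lowest and any gene differing by 2-fold were named, and other names are marked in the text. Alternatives were median centring, quantile normalization, loess (span 0.4, statsmodels 0.14.6), a pseudocount of 50, no floor, a lower and a higher floor (30th and 70th percentiles), a 1.5-fold threshold and 3 other choices of probe set. Pooling all probe sets of the members, and summing a gene's ratios, were added after seeing the data. The scripts were tested on simulated arrays. The members and lists were chosen with earlier results of these data known. The number of arrays limits the precision.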

Additional observations from a re-analysis of the deposited data

How the results depend on the processing

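The count of member probe sets differing by 2-fold was 0 under median centring, quantile normalization, loess and the floor at the 70th percentile. It was 2 at a 30th percentile floor, 4 with no floor, 1 with a pseudocount of 50 and 4 at a threshold of 1.5-fold. The probe sets past 2-fold with a lower floor, no floor or the pseudocount were those of Arnt (1449696_at), Epas1 (1449888_at) and Hif1an (1447817_at and 1452845_at), each with at least 1 value below the floor of 166. The median over the 9 genes, 0.22, became 0.045 with the median over probe sets, 0.052 when the probe set nearest 0 stood for the gene and 0.014 with every entering probe set counted once. In those first 2 settings 5 genes were higher in place of 8. That count was also 5 with summed ratios over probe sets, and 7 without suffixed probe sets. With the probe set nearest 0 the ratio of Vhl became -0.51, that of Hif1a -0.02 and that of Arnt -0.19. With the median over probe sets it became -0.52 for Arnt, -0.05 for Egln1 and -0.0067 for Cul2. Without suffixed probe sets that of Cul2 became -0.07. Epas1, Egln2, Egln3 and Hif1an have 1 entering probe set each, so these choices could not move them, and under the scalings, floors and pseudocount that gave a value they kept their sign. Egln3 gave no value at the 70th percentile floor. The last of the 3 medians and the summed ratios were chosen after seeing the data.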

Other observations

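Cofactors of HIF and the wider family of oxygen-using hydroxylases gave a similar mixture. HIF cofactors had 5 of 11 higher and a median log2 ratio of -0.13, which became 0.10 when the probe set nearest 0 stood for each gene. Ncoa1, a steroid receptor coactivator that also serves HIF, read 1980 in wild type and 1140 in the labelled knockout, 1.74-fold lower, with its other entering probe set at -0.19. Its relative Ncoa2 read 2024 and 2902, a log2 ratio of 0.52, and 2 of its other 3 entering probe sets were opposite. Cited2, a HIF target that competes for the coactivators, read 12195 and 9021, a log2 ratio of -0.43 with its other probe set in the same direction. Trrap, an adaptor of histone acetyltransferase complexes, had 0.23.

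Other 2-oxoglutarate oxygenases, enzymes that share the iron chemistry of the EGLN proteins, had 10 of 18 higher and a median of 0.06, which became -0.00017 under quantile normalization, -0.02 when the probe set nearest 0 stood for each gene and -0.07 with the median over probe sets. Plod1, a collagen lysyl hydroxylase, read 339 and 86.5, at least 2.04-fold lower. All 9 entering fibroblast markers were lower too, and their part in it was not tested. P4ha2, a collagen prolyl hydroxylase, had -0.47. The RNA demethylase Alkbh5 read 4680 and 7272, a log2 ratio of 0.64, against -0.57 in its other probe set, and the DNA dioxygenase Tet2 read 738 and 1116, a log2 ratio of 0.60 with its other entering probe set in the same direction.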
